A study of Mus musculus with 2 samples.

Results

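Cdk19 and Amd1 are adjacent protein-coding genes on mouse chromosome 10, transcribed away from each other. They were chosen by symbol, 2 of the 31053 genes of the count matrices, with their levels in these libraries already known, so the difference between Hypoxia and Normoxia that drew attention to them is given here as a description. As described for these libraries, single-cell RNA sequencing had been performed on lung cells of NG2tdT mice. In such mice the Cspg4 promoter drives a tamoxifen-dependent Cre (NG2-Cre-ER), and the Ai14 allele then switches on the red reporter tdTomato. Both groups are described as carrying the reporter and as having received tamoxifen at 2 mg per 30 g body weight with 7 days of rest. Normoxia mice had no further treatment, and Hypoxia mice breathed 10% oxygen for 21 days. The study's methods speak of male mice 2 to 4 months old, without giving the age for these libraries. There was 1 library per group, so the spread among replicates is unknown, groups were not tested against each other, and each difference is one between these 2 libraries. All intervals are 95% intervals and cover counting error only.

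CDK19 is a kinase of the Mediator complex, which relays signals from transcription factors to RNA polymerase II. It is the close relative of CDK8, and either kinase can pair with cyclin C, MED12 and MED13 in a detachable kinase module that tunes transcription. AMD1 is S-adenosylmethionine decarboxylase, which supplies the aminopropyl groups for making spermidine and spermine. Its abundance is held down by the polyamines themselves, partly through a short reading frame in the leader of its messenger RNA.

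On the mouse assembly GRCm38, the annotation GENCODE M21 places Amd1 (ENSMUSG00000075232) on the minus strand at chr10:40287458-40302186 and Cdk19 (ENSMUSG00000038481) on the plus strand at chr10:40339564-40483818. The gene bodies were 37.4 kb apart, with their starts facing each other across that gap. The annotation lists 1 gene between them, a pseudogene, and 0 protein-coding genes. Amd2, an Amd1 copy without the gene's introns, lies on the same chromosome 4.58 Mb away at chr10:35708675-35711892. Cdk8 lies on chromosome 5.

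Sequence is shown for Amd1, the member with an entry in the RefSeq promoter table, because the copy Amd2 makes its counts uncertain and because the copies differ upstream of their starts and are alike in the leader. The first run is the 250 bases before the RefSeq start of Amd1 (GRCm38.p6, chr10:40302189-40302438, minus strand, printed 5′ to 3′ in the direction of transcription), with matches to 3 searched motifs in capitals. The second is the short leader reading frame, printed whole (chr10:40302155-40302175, minus strand, in the 5′ UTR).
Amd1 upstream: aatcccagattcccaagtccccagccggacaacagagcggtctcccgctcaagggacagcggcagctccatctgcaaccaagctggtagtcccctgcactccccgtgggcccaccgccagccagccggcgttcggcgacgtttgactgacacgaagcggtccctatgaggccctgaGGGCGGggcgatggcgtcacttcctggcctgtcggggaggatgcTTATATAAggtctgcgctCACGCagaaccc
Amd1 leader reading frame: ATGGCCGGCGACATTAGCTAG

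The upstream run had a G+C content of 64.4%, against a median of 52.4% over all upstream windows of the table. Motifs were searched on both strands over this run. GGGCGG, a GC box, was found with its first base at -74. TATAA was found at -30 and -27 as overlapping matches on opposite strands, and 22.8% of all windows of the same length held it. GCGTG, 1 form of the core sequence bound by hypoxia-inducible factors, was found on the opposite strand (read here as CACGC) at -12, and 28.2% of all windows held it, whereas the GC box was in 32.7%. The other form of that core, ACGTG, was not in the run and was in 16.6% of windows. The palindrome CACGTG (in 6.02% of windows) and the box CCAAT (in 33.8%) were not in the run either. The leader reading frame of 21 bases was identical in Amd1 and Amd2, and the longest stretch the windows of both genes shared was 48 bases. Upstream of the starts the longest shared stretch was 7 bases, and the G+C content of the Amd2 run was 37.6%. These are descriptions of letters, not of binding.

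The Amd1 transcript of 3204 bases shared 86.1% of its 50-base words with the Amd2 transcript, and 98.7% in its last 500 bases, the part that a 3′ library reads. Reads that fit both genes equally are not counted for either by Cell Ranger, so the split of UMIs (unique molecular identifiers, each standing for 1 captured transcript) between Amd1 and Amd2 is uncertain and both levels may be understated. Cdk19 and Cdk8 shared 0% of such words.

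After filtering, the Normoxia library held 293 cells with a median of 3135 UMIs and the Hypoxia library 453 cells with a median of 2818 UMIs. The labels describe sorted tdTomato-positive cells, but Cspg4, the gene that drives the reporter, had a UMI in 1 Normoxia and 2 Hypoxia cells, and most cells carried endothelial, immune or fibroblast markers. The study also describes a single-cell preparation of whole lung depleted of cells bearing CD45 and CD326. That preparation came from wild-type animals kept in hypoxia, and its data were combined with a published set of normoxic and hypoxic lung cells. Which preparation these matrices hold was not settled here, so the reporter genotype and the tamoxifen rest on the description alone. The shares of cell classes, and the immune cells used as a background, are those of the libraries as deposited. All cells were clustered jointly on genes other than Cdk19 and Amd1, and of the resulting 15 clusters those numbered 2, 4, 5, 9 and 15 earned the name endothelial cell-like. In Normoxia this class took in 97 of 293 cells (33.1%, 27.7 to 38.8%) with a median of 2510 UMIs, and in Hypoxia 195 of 453 (43.0%, 38.4 to 47.7%) with a median of 2810. In both libraries the median endothelial cell-like cell had 9 of the 11 endothelial markers, against 1 in the other cells. Cluster 9 carried the markers of aerocytes, the Car4-positive capillary cells of gas exchange, and cluster 15 those of lymphatic endothelium. Clusters 2, 4 and 5 earned no closer name. A subtype marker had to be 2-fold above the median of the endothelial cell-like clusters, which markers shared by these clusters can hardly reach. They did carry general capillary markers. In Hypoxia, Gpihbp1 had UMIs in 60 of 68, 63 of 67 and 32 of 34 of their cells, against 6 of 20 in cluster 9. Plvap was in 26, 30 and 16 of them and Aplnr in 28, 33 and 12, against 0 of 20 for each. The endothelial cells of the libraries were not spread alike over clusters 2, 4 and 5. Normoxia had 36 of its 97 cells in cluster 5 and 21 and 17 in clusters 2 and 4, whereas Hypoxia had 68 and 67 of its 195 cells in clusters 2 and 4 and 34 in cluster 5. The libraries shared 2 cell barcodes, and 0 of them were endothelial cell-like.

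In endothelial cell-like cells, both genes had far more UMIs in Hypoxia than in Normoxia. Cdk19 had 14 UMIs in Normoxia and 310 in Hypoxia, or 52.2 CPM (counts per 1000000 UMIs of the same cells; 28.6 to 87.7) and 478 CPM (426 to 534). The ratio was 9.15-fold, a log2 ratio of 3.19 (2.43 to 4.08). Amd1 had 6 UMIs in Normoxia and 189 in Hypoxia, or 22.4 CPM (8.22 to 48.7) and 291 CPM (251 to 336). That ratio was 13.0-fold, a log2 ratio of 3.70 (2.55 to 5.17). Neither pair of intervals overlapped between the libraries. By log2 ratio Amd1 was 6th and Cdk19 16th of the 6168 genes with at least 20 UMIs in these cells.

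Both genes were also found in a larger share of cells. In Normoxia 8 of 97 cells had a Cdk19 UMI (8.25%, 3.63 to 15.6%), and in Hypoxia 103 of 195 did (52.8%, 45.6 to 60.0%). Amd1 had one in 5 of 97 (5.15%, 1.69 to 11.6%) and in 75 of 195 (38.5%, 31.6 to 45.7%). To set depth equal, each cell was thinned to 1000 UMIs, which left out 4 Normoxia and 7 Hypoxia cells with fewer. Of the thinned cells, 4 of 93 in Normoxia (4.30%, 1.18 to 10.6%) and 64 of 188 in Hypoxia (34.0%, 27.3 to 41.3%) kept a Cdk19 UMI. Amd1 was detected in 0 of 93 Normoxia cells, which allows a share of up to 3.23%, and in 35 of 188 Hypoxia cells (18.6%, 13.3 to 24.9%).

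Outside the endothelial cell-like clusters both genes were sparse. As a background that free RNA can give, T or NK, B and neutrophil-like cells together, once thinned, had Cdk19 in 1 of 46 cells in Normoxia and 5 of 136 in Hypoxia (2.17% and 3.68%), and Amd1 in 0 of 46, which allows a share of up to 6.52%, and 3 of 136 (2.21%). Without thinning, those shares were 2.17% and 6.96% for Cdk19 and 2.17% and 5.06% for Amd1. The thinned Hypoxia shares of both genes in endothelial cell-like cells lay above the intervals of that background, whereas the thinned Normoxia shares lay within them. By CPM, which uses every UMI, Normoxia Cdk19 was above that background, at 52.2 CPM (28.6 to 87.7) against 4.78 CPM (0.12 to 26.6), while the interval of Normoxia Amd1 (8.22 to 48.7 CPM) overlapped that of its background, 4.78 CPM (0.12 to 26.6). Over all cells that were not endothelial cell-like, Cdk19 had 12 Normoxia and 57 Hypoxia UMIs, a log2 ratio of 2.09 (1.17 to 3.12), and 32 of the 57 lay in the unnamed cluster 8. Amd1 had 24 and 36 UMIs there, a log2 ratio of 0.42 (-0.36 to 1.23). Of these Amd1 UMIs, 19 of the 36 in Hypoxia lay in cluster 8. The unnamed cluster 7, with 45 Normoxia and 6 Hypoxia cells, held 10 of the 24 in Normoxia. The difference between the 2 libraries in Amd1 was thus seen in the endothelial cell-like cells. In the remaining cells as a pool it was not detectable at this depth. The clusters of that pool were filled unequally by the libraries, and the part of this in the pooled ratio was not tested. With every retained cell counted, Cdk19 went from 26 to 367 UMIs between the libraries, a log2 ratio of 3.30 (2.73 to 3.94), and Amd1 from 30 to 225, a log2 ratio of 2.39 (1.84 to 2.99).

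**Figure D1:**
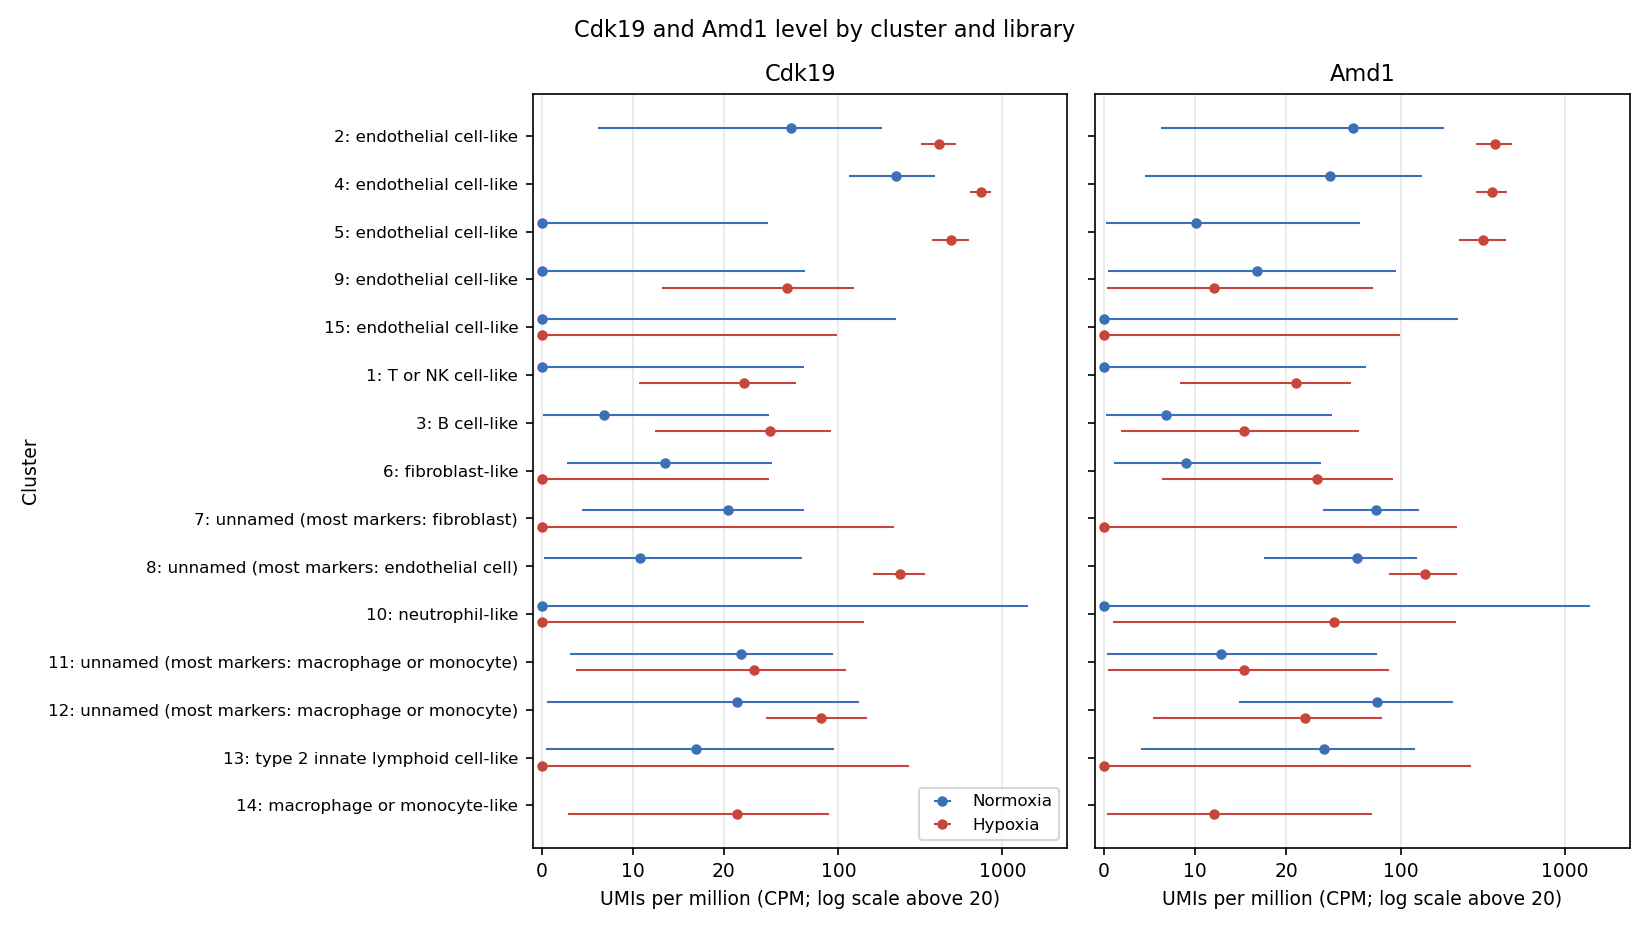
Level of Cdk19 (left) and Amd1 (right) in each of the 15 clusters, in CPM (linear to 20, log scale above), Normoxia in blue and Hypoxia in red; lines are 95% Poisson intervals for counting error. In Hypoxia the endothelial cell-like clusters 2, 4 and 5 lie at 410 to 742 CPM for Cdk19 and 320 to 374 CPM for Amd1, while clusters 9 and 15 lie at 48.5 CPM or below.

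Within the endothelium, the 2 genes followed the same division. In Hypoxia the order of Cdk19 levels was cluster 4 (742 CPM, 637 to 859), cluster 5 (488 CPM, 370 to 630) and cluster 2 (410 CPM, 319 to 519). With every cell counted, the interval of cluster 4 did not overlap the next, whereas those of clusters 5 and 2 overlapped. However, 1 cell held 37 of the 179 Cdk19 UMIs of cluster 4, and 1 cell held 16 of the 58 of cluster 5. Whether the intervals stay apart without these cells was not tested. Cdk19 had 4 UMIs in the aerocyte-type cluster 9, all in 1 of 20 cells, and 0 in the 6 cells of the lymphatic-type cluster 15. Amd1 was at 374 CPM (287 to 479) in cluster 2, 361 CPM (289 to 445) in cluster 4 and 320 CPM (226 to 439) in cluster 5, levels whose intervals overlapped, and had 1 UMI in cluster 9 and 0 in cluster 15. The aerocyte-type cells were not shallow, with a median of 3574 UMIs, and the upper limits there were 124 CPM for Cdk19 and 67.5 CPM for Amd1.

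Because the clusters were filled unequally, each was also compared with itself. The clustering left out Cdk19 and Amd1 but used Ntrk2, a gene also higher in Hypoxia, and Cdk19 was first among the genes leading cluster 4. The clusters are thus not independent of the difference between the libraries. In cluster 4 Cdk19 had 12 Normoxia and 179 Hypoxia UMIs, a log2 ratio of 1.73 (0.89 to 2.71), and this cluster held 12 of the 14 Normoxia UMIs of the gene, in 7 of its 17 cells (223 CPM, 115 to 390). In cluster 2 it had 2 and 69 UMIs, for a log2 ratio of 3.00 (1.09 to 6.07). In cluster 5 it had 0 UMIs in 36 Normoxia cells and 58 in 34 Hypoxia cells, and the interval of the log2 ratio began at 3.67. A count of 0 gives no measured fold. With 3 counts put in its place as a rough upper limit, Hypoxia was 16.1-fold higher, a less cautious limit than that interval. Amd1 was higher in Hypoxia in each of the 3 clusters, with 2 and 63 UMIs in cluster 2 (log2 ratio 2.87, 0.96 to 5.95), 2 and 87 in cluster 4 (3.28, 1.38 to 6.34) and 1 and 38 in cluster 5 (4.99, 2.42 to 10.3). In cluster 9 the interval of either gene held 0. Scgb1a1, which club cells secrete and endothelium lacks, had UMIs in 30 of 67 Hypoxia and 2 of 17 Normoxia cells of cluster 4, in 25 of 68 and 5 of 21 of cluster 2, and in 12 of 34 and 7 of 36 of cluster 5, and its part in the levels of the pair was not tested. The leukocyte marker Ptprc had UMIs in at most 2 cells of any endothelial cell-like cluster in either library.

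The unnamed cluster 8, with 20 Normoxia and 23 Hypoxia cells, had 10 endothelial markers but was led by Scgb1a1, a club cell gene, and Vwf, a venous marker. There Cdk19 had 1 and 32 UMIs, for a log2 ratio of 4.46 (1.88 to 9.81), and Amd1 5 and 19 UMIs, for a log2 ratio of 1.39 (-0.081 to 3.17). The cells of cluster 8 were not alike in the libraries: Pecam1 had UMIs in 9 of 20 Normoxia and 17 of 23 Hypoxia cells, Cdh5 in 8 and 15, Vwf in 3 and 17, and the fibroblast gene Col1a2 in 4 and 0. The part of that shift in the ratios of cluster 8, and of the class with it added, was not tested. At least 4 endothelial markers per cell were more common in the endothelial cell-like class (99.0% of cells in either library) than in all other cells (6.63% of Normoxia and 7.75% of Hypoxia cells), so part of the cells outside the class were endothelial by markers. Adding cluster 8 to the class gave a log2 ratio of 3.39 (2.65 to 4.25) for Cdk19 and 3.12 (2.25 to 4.15) for Amd1. In Normoxia the unnamed cluster 7, led by Hhip, Igfbp3 and Rgs5, held 10 of the 30 Amd1 UMIs (70.4 CPM, 33.8 to 130) and 3 Cdk19 UMIs. It had 6 Hypoxia cells with 0 UMIs of either gene, too few to compare.

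Whether the 2 neighbours went together was asked in single cells. In Hypoxia 55 of 195 endothelial cell-like cells had UMIs of both genes, 48 of Cdk19 alone, 20 of Amd1 alone and 72 of neither. Amd1 was present in 53.4% (43.3 to 63.3%) of the 103 Cdk19-positive and 21.7% (13.8 to 31.6%) of the 92 Cdk19-negative cells, a difference of 31.7 percentage points (18.2 to 43.5). Deep cells catch more of every gene, and the Cdk19-positive cells had a median of 2928 UMIs against 2650. After thinning to 1000 UMIs the shares were 17 of 64 (26.6%, 16.3 to 39.1%) and 18 of 124 (14.5%, 8.84 to 22.0%), a difference of 12.0 points (0.27 to 25.02). That interval cleared 0 narrowly, and it held 0 with cells marked by Scrublet removed (10.7 points, -1.50 to 24.9), at Leiden resolution 0.5 (10.2, -1.52 to 23.0), at a stricter maximum of genes per cell (8.96, -4.41 to 23.6) and when thinned to 500 UMIs (4.60, -6.50 to 21.1). In Normoxia 2 cells had both genes, 6 Cdk19 alone, 3 Amd1 alone and 86 neither. Unthinned, Amd1 was thus present in 2 of 8 Cdk19-positive (25%) and 3 of 89 Cdk19-negative cells (3.37%), a difference of 21.6 points (2.77 to 55.8) that rests on 2 cells. At equal depth 0 of 93 Normoxia cells had Amd1, so no comparison could be made there.

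Thinning also discards most UMIs of low genes, so the 195 Hypoxia cells were in addition split by total UMIs into 3 equal groups of 65 without thinning, a split chosen after values had been seen. In the shallowest group (median 1656 UMIs) Amd1 was present in 11 of 28 Cdk19-positive and 9 of 37 Cdk19-negative cells (39.3% and 24.3%). In the middle group (median 2810) it was present in 17 of 36 and 9 of 29 (47.2% and 31.0%). In the deepest group (median 4003) it was present in 27 of 39 and 2 of 26 (69.2%, 52.4 to 83.0%, and 7.69%, 0.95 to 25.1%). The direction was the same in each group, and only in the deepest did the intervals not overlap. Thinned within clusters, the difference was 19.3 points (-2.57 to 41.7) in cluster 2, 19.7 points (-8.04 to 48.7) in cluster 5 and -4.98 points (-23.5 to 15.3) in cluster 4, where Cdk19 was highest, and each of these intervals held 0.

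**Figure D2:**
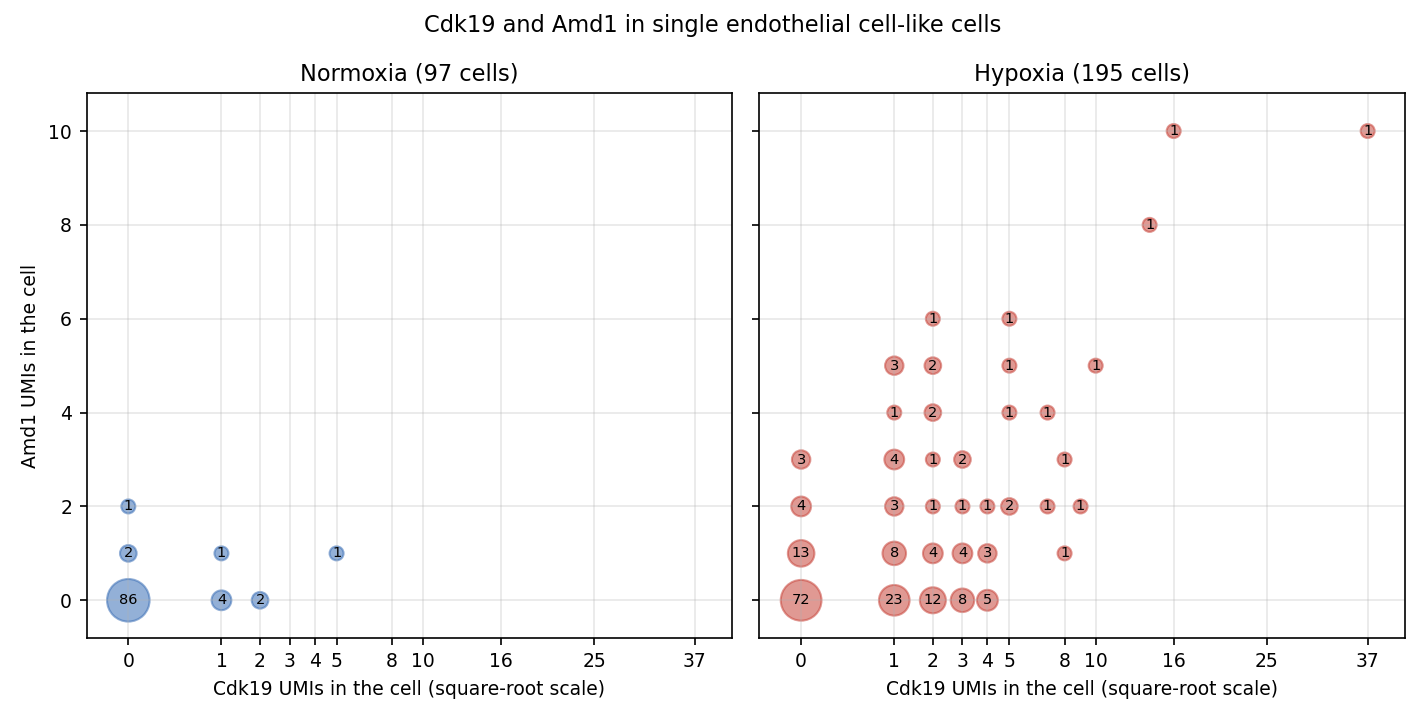
Cdk19 UMIs (x axis, square-root scale) against Amd1 UMIs (y axis) in single endothelial cell-like cells of Normoxia (left, 97 cells) and Hypoxia (right, 195 cells); each disc is a pair of counts, its printed number is how many cells had that pair and its area grows with the square root of that number. The 72 Hypoxia and 86 Normoxia cells with neither gene lie at the origin, and the 3 cells at the upper right have 14 to 37 Cdk19 and 8 to 10 Amd1 UMIs.

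The counts per cell were uneven. Of the 103 Hypoxia cells with Cdk19, 42 had 1 UMI and 23 had 2, while the highest had 37, or 11.9% of all 310. That cell belonged to cluster 4, held 18454 UMIs in all and had 10 Amd1 UMIs and 26 of Ntrk2. The cells with 16 and 14 Cdk19 UMIs held 21234 and 13665 UMIs in all, with 10 and 8 of Amd1. The highest cells in either gene were therefore also far above the median depth, and whether any was a doublet was not tested beyond the caller, which marked 2 of the 453 Hypoxia cells. Without the cell with most UMIs of the gene in each library, the log2 ratio was 3.67 (2.73 to 4.82) for Cdk19 and 4.23 (2.85 to 6.13) for Amd1, so neither rested on 1 Hypoxia cell.

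Over the cells, Pearson's r between log-normalized Cdk19 and Amd1 was 0.32 over 195 Hypoxia and 0.37 over 97 Normoxia cells. The cells of a library share depth and free RNA, so r is a description. It was 0.15 over 188 Hypoxia cells after thinning, and in Normoxia it was 0.20 without the 1 cell with 5 Cdk19 UMIs and 1 Amd1 UMI. By Hypoxia cluster, r reached 0.34 over the 68 cells of cluster 2, 0.26 over the 34 of cluster 5 and 0.15 over the 67 of cluster 4. Among 2507 genes with a UMI in at least 20% of these Hypoxia cells, the median r with Cdk19 was 0.020 and the 95th percentile 0.17, and Amd1 ranked 9th with Cdk19 and Cdk19 3rd with Amd1. After thinning those ranks were 91st and 87th.

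The genes most like Cdk19 by r over the 195 cells were Cxcl12 (0.36), a chemokine, Sox17 (0.36), an endothelial transcription factor of arteries, Ntrk2 (0.35), the receptor for brain-derived neurotrophic factor, H2-Aa (0.34), an MHC class II chain, Cd93 (0.33), Sema3g (0.33), Arhgef15 (0.33), Slc6a6 (0.32), the taurine transporter, Amd1 and Ptprb (0.31), an endothelial phosphatase. Among those most like Amd1 were Slc6a6 (0.33), Amd2 (0.32), Cdk19, Sox17 (0.30), Mrps21 (0.28), Rdx (0.28), Ntrk2 (0.28), Babam1 (0.25) and Nemf (0.25). Slc6a6, Sox17 and Ntrk2 were in both lists. At equal depth the order changed. Of the genes most like Cdk19, Sema3g and Ntrk2 were then 4th and 5th and Cd93 18th, while Arhgef15 was 114th and H2-Aa 222nd (r 0.11, and -0.0053 over the Normoxia cells). Of those most like Amd1, Slc6a6 was then 6th and Sox17 10th, while Amd2 was 78th and Babam1 387th. Over the 97 Normoxia cells, r with Cdk19 was 0.30 for Slc6a6, 0.26 for Sox17 and 0.064 for Ntrk2. The like genes were not uniformly higher in Hypoxia, with log2 ratios between the libraries of 3.97 (3.15 to 4.93) for Ntrk2, 2.46 (2.10 to 2.84) for H2-Aa, 1.58 (1.14 to 2.06) for Slc6a6, 0.46 (0.070 to 0.86) for Sox17 and -0.50 (-0.74 to -0.26) for Cd93. In thinned Hypoxia cells Cdk19 was present in 37 of 80 cells with Ntrk2 (46.2%, 35.0 to 57.8%) and in 27 of 108 without (25%, 17.2 to 34.3%), and Amd1 in 22 of 80 (27.5%) and 13 of 108 (12.0%).

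**Figure D3:**
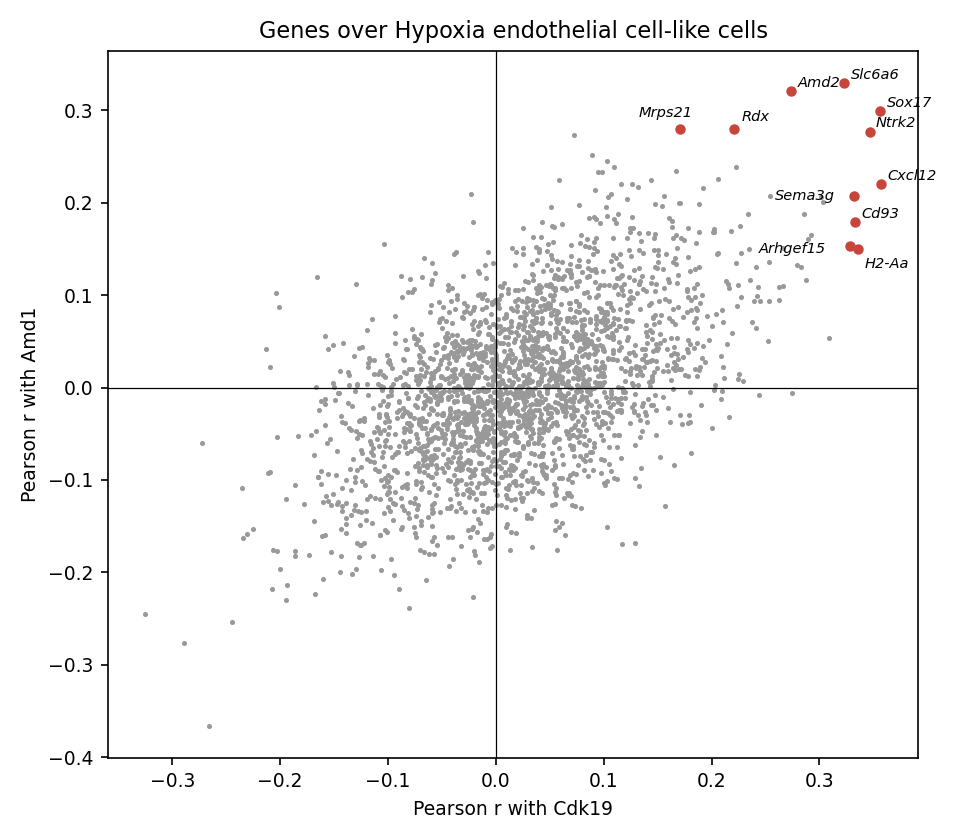
Pearson r with Cdk19 (x axis) against r with Amd1 (y axis) for each of the other genes with a UMI in at least 20% of the 195 Hypoxia endothelial cell-like cells; the 7 genes most like either member are red and named, the members themselves not drawn. Slc6a6, Sox17 and Ntrk2 lie at the upper right with r above 0.27 on both axes.

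The close relative Cdk8 was set beside Cdk19 as the other kinase of the module. It had 12 UMIs in Normoxia and 22 in Hypoxia endothelial cell-like cells, 44.8 CPM (23.1 to 78.2) and 33.9 CPM (21.3 to 51.4), a log2 ratio of -0.40 (-1.48 to 0.75). In Normoxia the 2 kinases were thus at levels whose intervals overlapped, and in Hypoxia Cdk19 UMIs outnumbered those of Cdk8 by 310 to 22. As a 3′ library counts 1 end per transcript, these sums need no correction for length.

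Of the 7 genes of the Mediator kinase module, 5 had at least 20 UMIs in endothelial cell-like cells, and 2 were at least 2-fold higher in Hypoxia, Cdk19 and Med13, against 5.29% of all 6168 genes; 0 were at least 2-fold lower, against 4.41%. Med13, a scaffold that tethers the module to Mediator, had 4 and 24 UMIs, for a log2 ratio of 1.31 whose interval of -0.23 to 3.30 held 0. The related gene Med13l was at 8 and 31 UMIs (0.68, -0.47 to 2.01), and Ccnc, which encodes cyclin C, had 8 and 15 UMIs (-0.37, -1.70 to 1.08). The median without Cdk19 was 0.16 over 4 genes, against -0.024 over all genes. Med12, which activates the kinase, and Med12l had fewer than 20 UMIs. Cdk19 had the highest ratio of the 5, and it was chosen for that ratio.

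Of the 30 polyamine genes, 18 had at least 20 UMIs in these cells. Of these, 3 were at least 2-fold higher in Hypoxia (background 5.29%) and 2 at least 2-fold lower (background 4.41%), and the median was -0.079, or -0.11 without Amd1. The 3 higher ones, Amd1, Amd2 and Odc1, were all in the synthesis branch. Amd1 was chosen with its ratio known, and without it 2 of 17 genes were at least 2-fold higher. Those were Odc1 and Amd2, and the split of UMIs between Amd2 and Amd1 is uncertain. Odc1, ornithine decarboxylase, which makes putrescine at the entry of the pathway, had 9 UMIs in 9 Normoxia cells and 65 UMIs in 24 Hypoxia cells, a log2 ratio of 1.58 (0.56 to 2.77). For Amd2 the UMIs were 10 and 80 and the log2 ratio 1.72 (0.77 to 2.84). With the UMIs of Amd1 and Amd2 summed the log2 ratio was 2.80 (2.07 to 3.62), so the direction did not rest on how reads were split between the copies. The aminopropyl transferases that use the product of Amd1 differed less, with 8 and 18 UMIs for Srm, spermidine synthase (-0.11, -1.38 to 1.31), and 6 and 17 for Sms, spermine synthase (0.23, -1.18 to 1.86).

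Of the genes that remove or restrain polyamines, Oaz2 was lower in Hypoxia, and the intervals of Sat1 and Oaz1 held 0. Sat1, the acetyltransferase that starts polyamine breakdown, had 69 and 173 UMIs, for a log2 ratio of 0.051 (-0.36 to 0.48). The antizyme genes, whose proteins target ornithine decarboxylase for degradation, had 250 and 583 UMIs for Oaz1 (-0.054, -0.27 to 0.17) and 155 and 192 UMIs for Oaz2 (-0.97, -1.28 to -0.65). The antizyme inhibitor gene Azin1 had 8 and 25 UMIs (0.37, -0.82 to 1.73). Atp13a2, a lysosomal polyamine exporter, was lower in Hypoxia with 59 and 57 UMIs (-1.32, -1.88 to -0.77), as was Apip of methionine salvage with 11 and 10 (-1.41, -2.81 to -0.038). The other methionine salvage gene with enough UMIs, Mtap, was at -0.47 (-1.82 to 0.99), and the transporter gene Atp13a3 at -0.28 (-1.68 to 1.27). For the supply of S-adenosylmethionine, the substrate of AMD1, Mat2a was at 0.19 (-0.25 to 0.65) and Mat2b at -0.31 (-0.91 to 0.30). The genes of hypusine, the spermidine-derived residue of eIF5A, were Eif5a (-0.18, -0.52 to 0.16), Dhps (0.46, -0.65 to 1.72) and Dohh (-0.11, -0.88 to 0.70). The remaining 12 genes had fewer than 20 UMIs, among them 3 at 0 in both libraries.

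**Figure D4:**
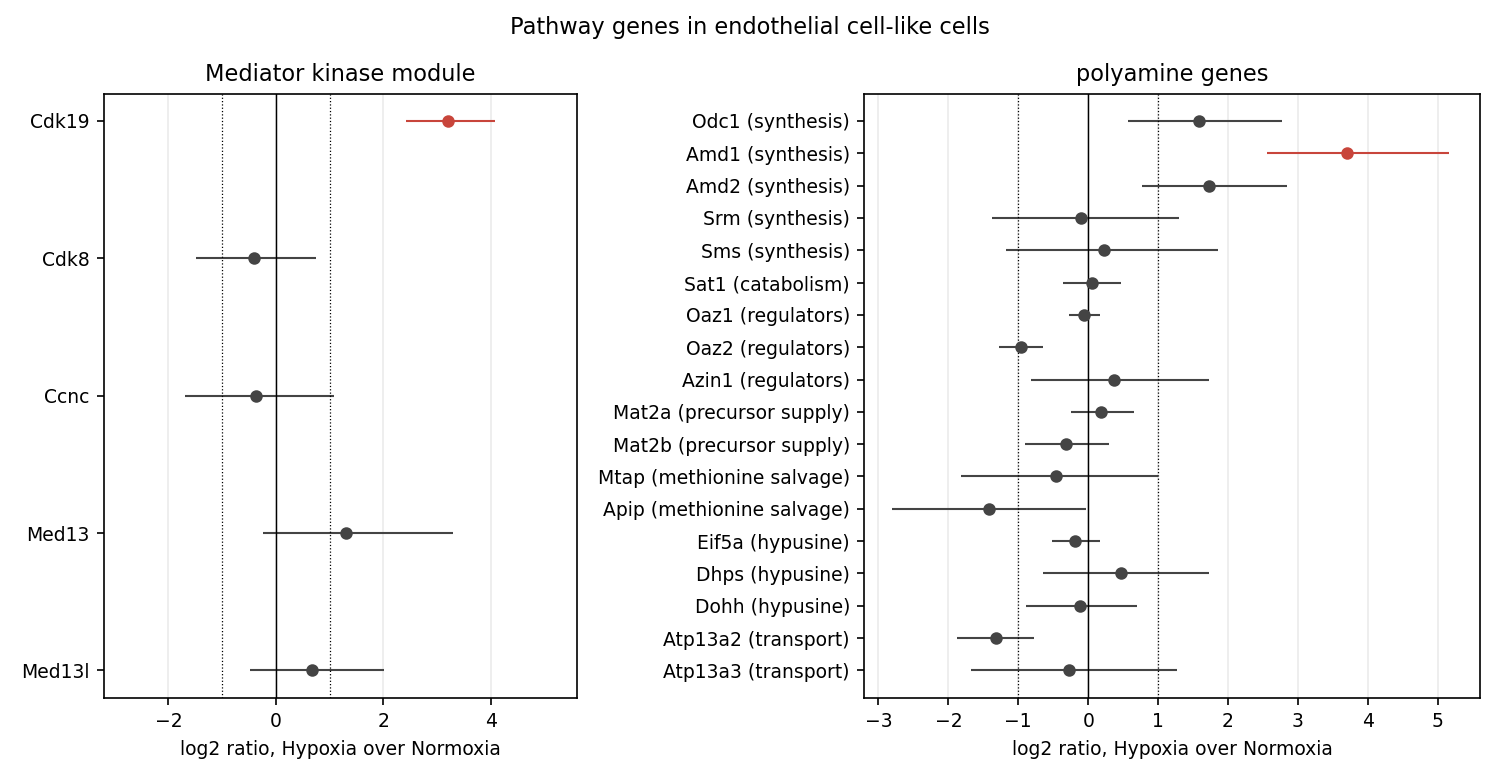
Log2 ratio of CPM, Hypoxia over Normoxia, in endothelial cell-like cells for the Mediator kinase module (left) and the polyamine genes (right) with at least 20 UMIs; lines are 95% intervals for counting error, dotted lines mark 2-fold and the members are red. Cdk19 (3.19) and Amd1 (3.70) lie to the right of every other gene shown, and Oaz2, Apip and Atp13a2 are the genes whose interval lies wholly below 0.

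Over all retained cells the intervals of the synthesis genes other than Amd1 and Amd2 held 0. Odc1 had 77 and 94 UMIs there, a log2 ratio of -0.23 (-0.68 to 0.22), Srm was at -0.072 (-0.72 to 0.59) and Sms at 0.34 (-0.27 to 0.96). Amd2 had 29 and 96 UMIs, for a log2 ratio of 1.21 (0.60 to 1.86).

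The last comparison asked whether other genes of the same stretch of chromosome differed too. The matrices held 35 genes within 1 Mb of either gene, members included, of which 21 had 0 UMIs in the endothelial cell-like cells of both libraries. Of the 6 with at least 20 UMIs, 2 were at least 2-fold higher, and those were Amd1 and Cdk19 themselves (background 5.29%). The other 4 ranged from -0.73 to 0.20. Gtf3c6, a subunit of a general factor for RNA polymerase III and the nearest of them, lies at -44.1 kb from the Amd1 start and had 9 and 25 UMIs, for a log2 ratio of 0.20 (-0.95 to 1.48). Fyn, a Src family kinase, was at 0.0087 (-0.72 to 0.78) from 23 and 56 UMIs, Cdc40, a splicing factor, at -0.37 (-1.33 to 0.64) from 15 and 28, and Mettl24 at -0.73 (-1.82 to 0.41) from 13 and 19. The antisense gene Cdk19os had 0 UMIs in these cells. Rpf2, a ribosome assembly factor gene in the window, had 3 and 8 UMIs. Over all retained cells 13 of the 35 genes had at least 20 UMIs, and the 11 besides the members ranged from -1.06 for Zbtb24, at least 2-fold lower like 8.13% of all 9813 genes, to 0.47 for Fyn; the members were the 2 at least 2-fold higher, against 6.21% of all genes.

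**Figure D5:**
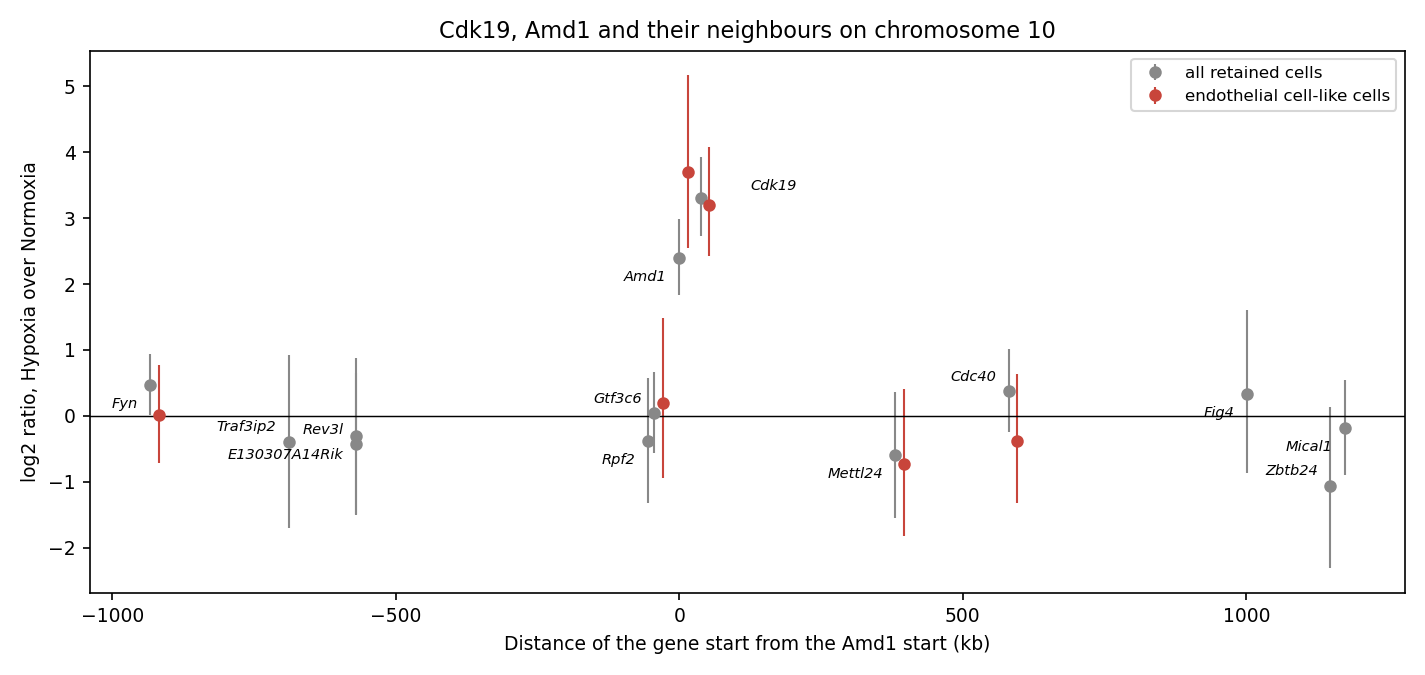
Log2 ratio of CPM, Hypoxia over Normoxia, against the distance of each gene's start from the Amd1 start in kb, for genes within 1 Mb of the pair with at least 20 UMIs; grey, all retained cells; red, endothelial cell-like cells, drawn slightly to the right; lines are 95% intervals for counting error. Amd1 at 0 kb and Cdk19 at 37.4 kb lie at 2.39 or above, and the other genes lie between -1.06 and 0.47.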

How the data were processed

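Single-cell libraries were made with a 10x Genomics 3′ kit, 1 per group. The deposited matrices hold UMI counts per gene and barcode, made by the authors with Cell Ranger (version 3.1.0 in the matrix headers) on mm10; replicate mice named in the labels could not be separated. The members and lists were chosen with earlier results of these data known. Following the study's methods, a barcode was kept if it had 200 to 6000 genes and no more than 5% of its UMIs were mitochondrial. Cells were clustered jointly with scanpy 1.11.5 (2000 variable genes without Cdk19 and Amd1, 15 components, 15 neighbours, Leiden resolution 1). A cluster was named from at least 3 markers of a class, each detected in at least 25% of its cells and at least 2-fold above the median of the clusters. The class also needed more markers than the next class, and no name was given where the leading genes went against it. Endothelial subtypes were named in the same way among the endothelial cell-like clusters. Doublets were marked with Scrublet and retained. UMIs were summed per library and cell class. Intervals are exact Poisson for CPM, Clopper-Pearson for shares, conditional binomial for log2 ratios and Newcombe for share differences, and PCR or library variation is outside them. Genes named are the members, every list gene with at least 20 UMIs, and the 10 genes with the highest r with either member, of which 1 is not reported here; other genes named were chosen after their values were seen. Gene positions came from GENCODE M21 (30934 of 31053 identifiers matched) and sequences from RefSeq (GRCm38.p6). The code was tested on simulated data.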

Additional observations from a re-analysis of the deposited data

Results flagged for a closer look

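The barcodes that the filters left out, which no comparison above used, also held the pair in Hypoxia. Cdk19 had 57 UMIs in 28 of 160 such Hypoxia barcodes (17.5%), or 143 CPM (109 to 186), against 3 UMIs in 3 of 80 Normoxia barcodes, or 14.2 CPM (2.93 to 41.5). Amd1 had 26 UMIs in 17 of the 160 Hypoxia barcodes (10.6%), or 65.5 CPM (42.8 to 95.9), and 0 UMIs in the 80 Normoxia barcodes. Of the barcodes left out, 146 in Hypoxia and 51 in Normoxia were above the mitochondrial maximum.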

How the results depend on the processing

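No paired analysis was possible because each group had 1 library, and for the same reason no replicate could be left out. Of 90 alternative values over 11 results, 84 lay within the interval of the value given, 5 moved and 1 changed sign. For r and the list counts a set margin took the place of the interval. Such intervals are wide, and that of the Normoxia share difference, 0, took in values from -3.96 to 21.6 (with no thinning). As no thinned Normoxia endothelial cell-like cell had Amd1, that 0 is no measured difference and could not change sign. Its 9 alternatives, all counted among the 84, therefore say little. The log2 ratio ranged from 2.97 to 3.47 (Cdk19) and 1.93 to 2.49 (Amd1) over all retained cells, and in the endothelial cell-like class from 2.95 to 3.67 (Cdk19) and 2.80 to 4.23 (Amd1). The share difference in Hypoxia, 12.0 points, was 31.7 with no thinning and 61.5 in the deepest of 3 depth groups, and 4.60 when thinned to 500 UMIs. Pearson's r in Hypoxia, 0.32, was 0.15 after thinning to 1000 UMIs. In Normoxia r, 0.37, was 0.20 without the cell with most Cdk19 UMIs and -0.05 within cluster 2, which had most endothelial cell-like cells over both libraries; with 1 cell for each gene among its 21 Normoxia cells, that sign carries no information. Thinned, it had no value because Amd1 had no UMI. At a minimum of 50 UMIs 1 Mediator gene was measured and at least 2-fold higher, against 2 of 5, as fewer genes were compared. The cause of the other changes was not tested. The depth groups, cluster 8 added, the summed copies and r without 1 cell were chosen after seeing the data. Depth limits Normoxia most, where Amd1 had 6 endothelial cell-like UMIs.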
